A study of Mus musculus with 2 samples.

Results

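The 39 Hox genes of the mouse were followed through the nuclei of the newborn ureter. They were taken from the 32589 genes of the count tables by symbol, as every Hoxa, Hoxb, Hoxc or Hoxd followed by digits only, which gave 11 Hoxa, 10 Hoxb, 9 Hoxc and 9 Hoxd genes. Ureters from 14 Pax2-cre/+;DNp63fl/fl;R26mTmG/+ mice, called DNp63cKO, and from 13 control mice, whose genotype is labelled wt, were collected at postnatal day 0 and pooled by genotype. Each pool gave 1 single-nucleus RNA library. Pax2-cre removes the floxed sequence of the DNp63 form of Trp63, a transcription factor of basal epithelial cells, in cells with a history of Pax2 expression, and R26mTmG is a membrane reporter of that recombination. The sources used here do not say whether control mice carried the driver, the floxed allele or the reporter, so their part and that of the deletion cannot be told apart. With 1 library per genotype, no difference between genotypes has a replicate check and no p-value is given. All intervals are 95% intervals that cover counting error only.

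Hox genes encode homeodomain transcription factors that give cells their position along the body axis. They lie in 4 clusters, and genes at the same place in different clusters, called paralogues, share a number from 1 to 13. Low numbers are switched on early and towards the head, and high numbers late and towards the tail. The ureter has 2 sources in the embryo: its epithelium, the urothelium, comes from the nephric duct by way of the ureteric bud, and its muscle and fibroblasts come from mesenchyme around that bud.

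The libraries held 5528 DNp63cKO and 9062 control nuclei, with medians of 1298 and 1124.5 UMIs (unique molecular identifiers, each standing for 1 captured RNA molecule) per nucleus, and 58 barcode sequences occurred in both. After filtering, 5172 and 8374 nuclei were clustered, and clusters were named as "-like" classes from marker genes. Urothelium-like nuclei numbered 2198 in DNp63cKO and 4912 in the control, smooth muscle-like 1422 and 1851, fibroblast-like 976 and 864, endothelium-like 299 and 344, and pericyte-like 82 and 69. Every one of the 22 urothelial, 12 smooth muscle, 11 fibroblast and 10 endothelial markers was higher in its class than in the other nuclei of the same library. Of the 8 pericyte markers, 8 were higher in DNp63cKO and 7 in the control, where Higd1b had no UMI. The same lists named the classes, so these counts are no independent check of the names. Of 7 collecting duct markers, 4 were also higher in urothelium in each library, and of 5 mesothelium markers 4 and 3 were. Trp63 stood at 139.7 CPM (UMIs per 1000000 UMIs of the class; interval 128.6 to 151.5) in DNp63cKO urothelium, and the control stood at 191.6 CPM (182.7 to 200.8). The part of the gene that was deleted is not given in the sources used here, so this level is a weak check of the labels.

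Free RNA, released from broken nuclei and captured with others, bears on every low level reported below. Its share in a class was taken from markers that the class should lack. It was 20.7% in DNp63cKO and 18.9% in control urothelium, 34.5% and 25.7% in smooth muscle, 39.3% and 30.3% in fibroblasts, 46.8% and 29.0% in endothelium, and 78.3% and 31.5% in pericytes. That share times the gene's level in the whole library is called the free-RNA level, and a gene was said to lie above it when the lower end of its interval did. In pericytes the share is uncertain, as single markers gave 56.1% to 122.2% in DNp63cKO and 16.3% to 51.5% in the control.

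In the Hoxd cluster (chromosome 2, 74668310 to 74765142, mm10), neighbouring genes differed in whether they lay above the free-RNA level in urothelium. The models of Hoxd8 and Hoxd10 overlap other genes, so their levels are uncertain. Hoxd8 and Hoxd9 lay above the free-RNA level in urothelium, whereas their neighbour Hoxd10 did not, and all 3 lay above it in smooth muscle. The 200 bases upstream of the starts of these 3 genes are therefore shown, from RefSeq on GRCm38.p6, plus strand, with CG dinucleotides in capitals. The windows are chr2:74691691-74691890 for Hoxd10, chr2:74697527-74697726 for Hoxd9 and chr2:74704415-74704614 for Hoxd8.
Hoxd10: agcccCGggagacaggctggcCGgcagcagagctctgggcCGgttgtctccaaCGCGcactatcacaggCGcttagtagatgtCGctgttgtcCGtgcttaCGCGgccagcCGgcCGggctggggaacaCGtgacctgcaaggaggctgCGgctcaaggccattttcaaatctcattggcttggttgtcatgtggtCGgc
Hoxd9: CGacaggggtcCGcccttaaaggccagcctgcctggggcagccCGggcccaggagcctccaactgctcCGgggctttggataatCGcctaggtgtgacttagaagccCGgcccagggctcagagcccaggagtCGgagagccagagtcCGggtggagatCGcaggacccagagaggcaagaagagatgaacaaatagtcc
Hoxd8: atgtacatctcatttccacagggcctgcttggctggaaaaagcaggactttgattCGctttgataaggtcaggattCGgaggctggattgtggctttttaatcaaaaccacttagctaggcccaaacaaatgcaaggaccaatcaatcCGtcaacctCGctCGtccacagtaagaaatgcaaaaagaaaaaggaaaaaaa
The Hoxd10 window held 15 CG dinucleotides, the Hoxd9 window 9 and the Hoxd8 window 5. The letters CG read the same on both strands and cannot overlap themselves. Of 32851 promoter windows of the same length, 22.6% held at least as many as Hoxd10, 36.8% as many as Hoxd9 and 50.8% as many as Hoxd8. The Hoxd9 window overlaps 60 bases of an exon of the antisense gene Gm28793, and the other windows overlap no exon. RefSeq windows were found for 22 of the 39 Hox genes.

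Of the 39 genes, 36 had at least 1 UMI in each library. A gene was called readable with 10 or more UMIs in a class and library. In both libraries of at least 1 class, 22 genes were readable: Hoxa3, Hoxa5, Hoxa7, Hoxa9, Hoxa10, Hoxa11, Hoxa13, Hoxb2 to Hoxb9, Hoxd3, Hoxd4, Hoxd8, Hoxd9, Hoxd10, Hoxd11 and Hoxd13. Another 4, Hoxa2, Hoxa4, Hoxc4 and Hoxc6, were readable, but in no class in both libraries. Hoxa2 was readable in control muscle and in DNp63cKO fibroblasts, and Hoxa4 in control muscle. Hoxc4 was readable in DNp63cKO muscle and Hoxc6 in DNp63cKO fibroblasts. The remaining 13 were too low to read in every class, among them Hoxa6, Hoxb1, Hoxb13, Hoxc5, Hoxc8, Hoxc9, Hoxc10, Hoxc11, Hoxc12, Hoxc13, Hoxd1 and Hoxd12. Of the 13, the highest whole-library count was 19 UMIs, for Hoxc5 in the control, and Hoxb13 and Hoxc12 had none in either library. The limit that a count of 0 allows (3 counts) was 0.717 CPM in DNp63cKO urothelium and 0.331 CPM in the control, 1.08 and 0.927 CPM in smooth muscle, 2.36 and 3.34 CPM in fibroblasts, 7.72 and 6.21 CPM in endothelium, and 28.6 and 38.2 CPM in pericytes.

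Readable genes numbered 19 in DNp63cKO urothelium and 20 in the control, 23 and 24 in smooth muscle, 22 and 20 in fibroblasts, 11 and 14 in endothelium, and 1 and 1 in pericytes, where the gene was Hoxa9. Those that also lay above the free-RNA level numbered 13 and 12 in urothelium, 20 and 22 in smooth muscle, 19 and 15 in fibroblasts, 9 and 14 in endothelium, and 1 and 1 in pericytes. Readable but not above it were Hoxb7, Hoxb9 and Hoxd3 in DNp63cKO muscle, and Hoxb2 and Hoxb4 in control muscle. In fibroblasts they were Hoxb8, Hoxb9 and Hoxd3 in DNp63cKO, and Hoxb4, Hoxb6, Hoxb7, Hoxb8 and Hoxd4 in the control. In DNp63cKO endothelium they were Hoxb4 and Hoxb5. Some gene models overlap others, and whether counting used the strand is not stated. Levels of Hoxa3, Hoxa5, Hoxd3, Hoxd4, Hoxd10 and Hoxd11, which overlap a gene on the same strand, are uncertain for that reason, as are those of Hoxb2, Hoxb3, Hoxb5, Hoxb6, Hoxd8 and Hoxa11, which overlap an antisense gene.

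The Hoxb cluster (chromosome 11, 96194316 to 96368256) gave most Hox UMIs in the urothelium, and Hoxa genes gave more of them in muscle and fibroblasts, each taken whole. Muscle was uneven. In the muscle cluster numbered 7, Hoxb gave 47.7% in DNp63cKO and 42.3% in the control, and Hoxa 28.3% and 27.6%. Free RNA made up 72.8% and 39.5% of that cluster, and its part was not tested. Hoxb genes made up 68.4% of Hox UMIs in DNp63cKO urothelium and 70.7% in the control, against 33.7% and 31.1% in smooth muscle, 33.8% and 29.5% in fibroblasts, 47.8% and 43.2% in endothelium, and 41.4% and 35.9% in pericytes. The Hoxa cluster (chromosome 6, 52155590 to 52260880) gave 4.22% and 2.44% in urothelium, 39.2% and 38.3% in smooth muscle, and 42.7% and 44.2% in fibroblasts. Endothelium lay between them, with 20% and 22.7% from Hoxa. The Hoxd share was 27.2% and 26.8% in urothelium, 26.0% and 29.9% in smooth muscle, 20.8% and 21.2% in fibroblasts, 20.7% and 20.5% in pericytes, and 31.9% and 33.3% in endothelium. Hoxc genes (chromosome 15, 102921103 to 103036852), which act in the axial skeleton and limbs among other places, gave only 1.05% and 0.643% of Hox UMIs over whole libraries, and their share among urothelium, muscle, fibroblasts and endothelium was highest in fibroblasts, at 2.79% and 5.05%. In pericytes their 2.30% and 7.69% rested on 2 and 6 UMIs.

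Summed over all 39 genes, the level was 1030 CPM (999.7 to 1061) in DNp63cKO urothelium and 954.3 CPM (934.3 to 974.7) in the control, and 753.2 CPM (721.3 to 786.1) and 696.1 CPM (667.7 to 725.5) in smooth muscle. Fibroblasts held 986.7 CPM (932.9 to 1043) and 859.3 CPM (799.7 to 922.1), endothelium 952.5 CPM (857.9 to 1055) and 919.2 CPM (835.7 to 1009), and pericytes 830.0 CPM (664.8 to 1024) and 993.5 CPM (785.3 to 1240). The classes thus differed more in which Hox genes they held than in the total.

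**Figure D1:**
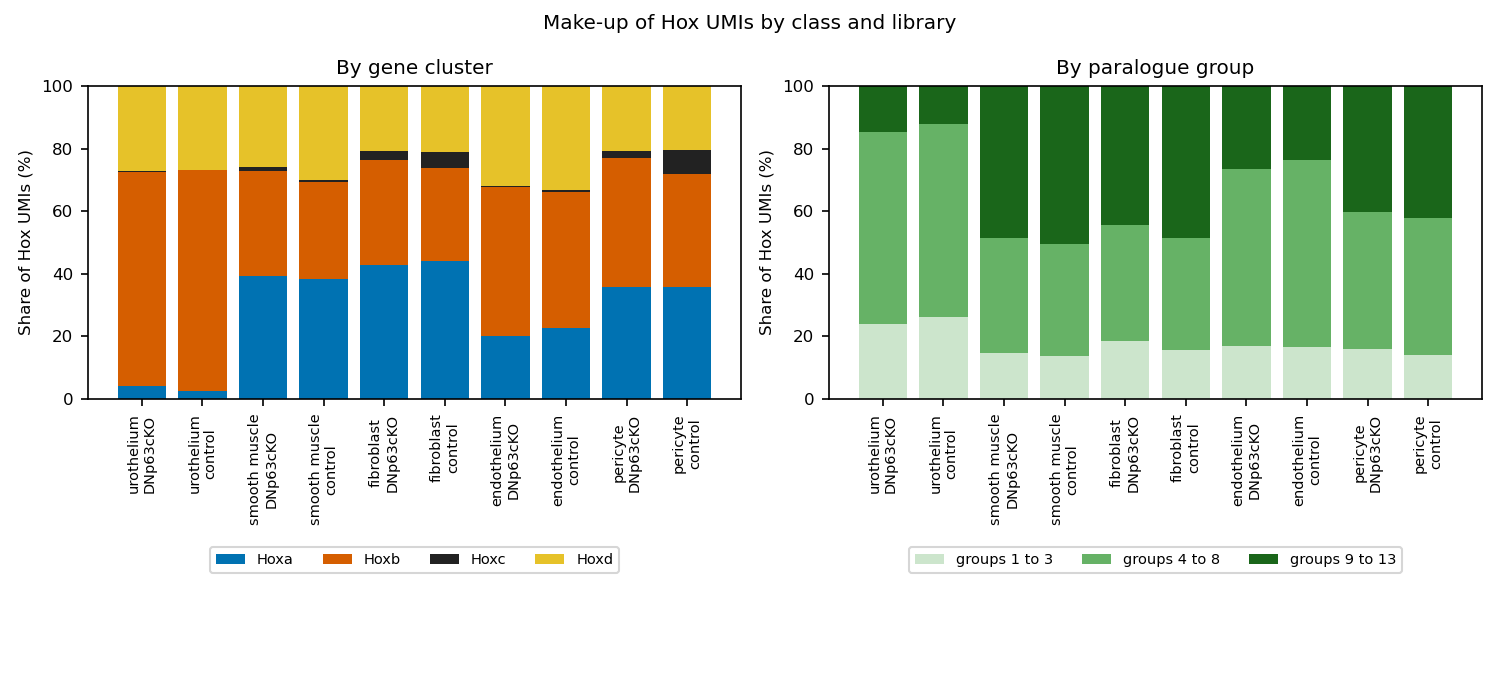
Share of Hox UMIs (percent, vertical axis) by gene cluster and by paralogue groups 1 to 3, 4 to 8 and 9 to 13, as stacked bars for 5 classes in each library. Hoxb fills over 60% of the urothelial bars, and groups 9 to 13 fill 14.8% and 12.0% of them against 48.5% and 50.6% in smooth muscle.

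Paralogue groups 9 to 13, those of the trunk's tail end, gave 14.8% of Hox UMIs (13.7 to 15.9%) in DNp63cKO urothelium and 12.0% (11.3 to 12.7%) in the control. In smooth muscle they gave 48.5% (46.3 to 50.6%) and 50.6% (48.5 to 52.7%), and in fibroblasts 44.5% (41.7 to 47.3%) and 48.4% (44.9 to 52.0%). Endothelium gave 26.5% (22.1 to 31.3%) and 23.6% (19.8 to 27.9%), and pericytes 40.2% (29.8 to 51.3%) and 42.3% (31.2 to 54.0%). In both libraries the urothelial intervals lie below those of the other 4 classes. Most of the urothelial share of groups 9 to 13 came from group 9: without it, groups 10 to 13 gave 2.55% and 1.53% of urothelial Hox UMIs, against 26.9% and 29.7% in smooth muscle. Groups 4 to 8 gave 61.2% and 61.9% in urothelium and 36.9% and 35.7% in smooth muscle. With the free-RNA level subtracted, the share of groups 9 to 13 was 11.6% and 9.94% in urothelium and 62.8% and 64.5% in smooth muscle. Haemoglobin and other red cell markers summed to 1346 and 1212 CPM in smooth muscle, against 140.1 and 97.6 CPM in urothelium. Without the muscle cluster numbered 1 the muscle share was 42.7% and 44.3%. By numbered muscle cluster, the share was 57.0% and 56.0% in cluster 1, 35.8% and 39.1% in cluster 7, and 48.5% and 49.9% in cluster 12.

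Among the low-numbered genes, Hoxb3 (ENSMUSG00000048763), a regulator of hindbrain and pharyngeal development, had the most UMIs in urothelium, at 179.6 CPM (167.0 to 192.9) in DNp63cKO and 193.6 CPM (184.6 to 202.9) in the control. Smooth muscle had 77.1 and 67.4 CPM of Hoxb3, above free-RNA levels of 45.5 and 39.4 CPM. Its neighbour Hoxb2 stood at 44.2 and 37.1 CPM in urothelium and at 15.4 and 10.2 CPM in smooth muscle. For both genes each urothelial library was above each muscle library. Hoxd3 was lower, at 18.9 and 16.7 CPM in urothelium and 6.10 and 7.42 CPM in smooth muscle. Their paralogue Hoxa3 went the other way, with 2.15 and 0.552 CPM in urothelium, 7.18 and 6.80 CPM in smooth muscle, and 29.1 and 14.5 CPM in fibroblasts.

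In groups 4 to 8 the same split between Hoxb or Hoxd and Hoxa was seen. Hoxb4, known from blood stem cells, was at 56.4 and 53.7 CPM in urothelium and 22.6 and 13.6 CPM in smooth muscle. Hoxd4 was at 129.9 CPM (119.2 to 141.3) and 115.9 CPM (109.0 to 123.1) in urothelium, 40.5 and 40.8 CPM in smooth muscle, and 144.2 and 151.1 CPM in endothelium. For Hoxd4 the urothelial and endothelial levels are high and the muscle level low in both libraries. Hoxb5 was at 65.0 and 61.7 CPM in urothelium and 24.0 and 25.3 CPM in smooth muscle. Hoxa5, which acts in lung development, was at 1.20 and 1.55 CPM in urothelium, beside free-RNA levels of 2.51 and 1.33 CPM, and at 15.1 and 12.1 CPM in smooth muscle and 40.2 and 33.4 CPM in fibroblasts. Among the classes other than pericytes, the Hoxa member of group 5 was highest in fibroblasts and the Hoxb member in urothelium.

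Hoxb6 (ENSMUSG00000000690) was at 172.9 CPM (160.5 to 186.0) and 171.0 CPM (162.6 to 179.8) in urothelium, 61.7 and 49.8 CPM in smooth muscle, and 131.3 and 97.3 CPM in endothelium. Hoxb7, whose regulatory sequence is widely used to drive transgenes in the nephric duct and ureteric bud, was at 48.5 and 34.9 CPM in urothelium and 13.3 and 12.4 CPM in smooth muscle. Hoxa7 was at 3.11 and 1.99 CPM in urothelium and 19.7 and 18.9 CPM in smooth muscle. Hoxb8 was at 69.4 and 74.3 CPM in urothelium and 22.2 and 21.3 CPM in smooth muscle. Hoxd8 was less uneven, at 82.0 and 75.1 CPM in urothelium, 45.6 and 47.9 CPM in smooth muscle, and 77.2 and 103.5 CPM in endothelium.

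Group 9 was the highest-numbered group read above free RNA in urothelium in both libraries, through Hoxb9 and Hoxd9. Hoxb9 (ENSMUSG00000020875) was at 67.0 CPM (59.3 to 75.3) and 47.8 CPM (43.4 to 52.6) in urothelium and at 16.5 and 16.7 CPM in smooth muscle. Hoxd9 was at 40.4 and 42.5 CPM in urothelium and 27.6 and 33.4 CPM in smooth muscle, and its class ratio did not pass 1.5-fold. Hoxa9 (ENSMUSG00000038227), a gene of the posterior trunk and of blood progenitors, was at 117.7 CPM (105.3 to 131.1) and 94.9 CPM (84.6 to 106.1) in smooth muscle, 215.0 CPM (190.2 to 242.1) and 192.6 CPM (164.9 to 223.5) in fibroblasts, 100.4 and 82.8 CPM in endothelium, and 219.4 and 203.8 CPM in pericytes. In urothelium it was at 18.4 and 9.28 CPM, beside free-RNA levels of 17.3 and 8.62 CPM. Hoxa9 thus was high in muscle, fibroblasts, endothelium and pericytes of both libraries and near the free-RNA level in the urothelium.

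Groups 10 to 13 were read mainly in muscle and fibroblasts. Hoxa10, known for its part in the uterus, was at 81.8 and 73.3 CPM in smooth muscle, 59.9 and 61.2 CPM in fibroblasts, and 12.2 and 5.86 CPM in urothelium, where free RNA gave 8.59 and 4.95 CPM. Hoxa11 and Hoxd11 act together in the forming kidney. Hoxa11 was at 25.5 and 31.5 CPM in smooth muscle and 2.87 and 2.32 CPM in urothelium. Hoxd11 was at 34.1 and 37.4 CPM in smooth muscle and 3.83 and 1.88 CPM in urothelium. Hoxd10 was at 34.4 and 31.5 CPM in smooth muscle, 39.4 and 24.5 CPM in fibroblasts, and 4.54 and 2.87 CPM in urothelium. None of Hoxa11, Hoxd10 and Hoxd11 lay above the free-RNA level in urothelium in either library, and Hoxa10 did so in DNp63cKO alone.

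The terminal genes Hoxa13 and Hoxd13, which act in the hindgut and lower urogenital tract, were low in muscle, fibroblasts and urothelium. Hoxa13 was at 18.7 and 21.0 CPM in smooth muscle, 7.09 and 8.90 CPM in fibroblasts, and 2.39 and 1.10 CPM in urothelium. Hoxd13 was at 6.82 CPM (4.11 to 10.7) and 8.96 CPM (6.003 to 12.9) in smooth muscle, from 19 and 29 UMIs. In fibroblasts it had 1 and 0 UMIs, in urothelium 0 and 5, and in endothelium and pericytes 0 in both libraries.

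**Figure D2:**
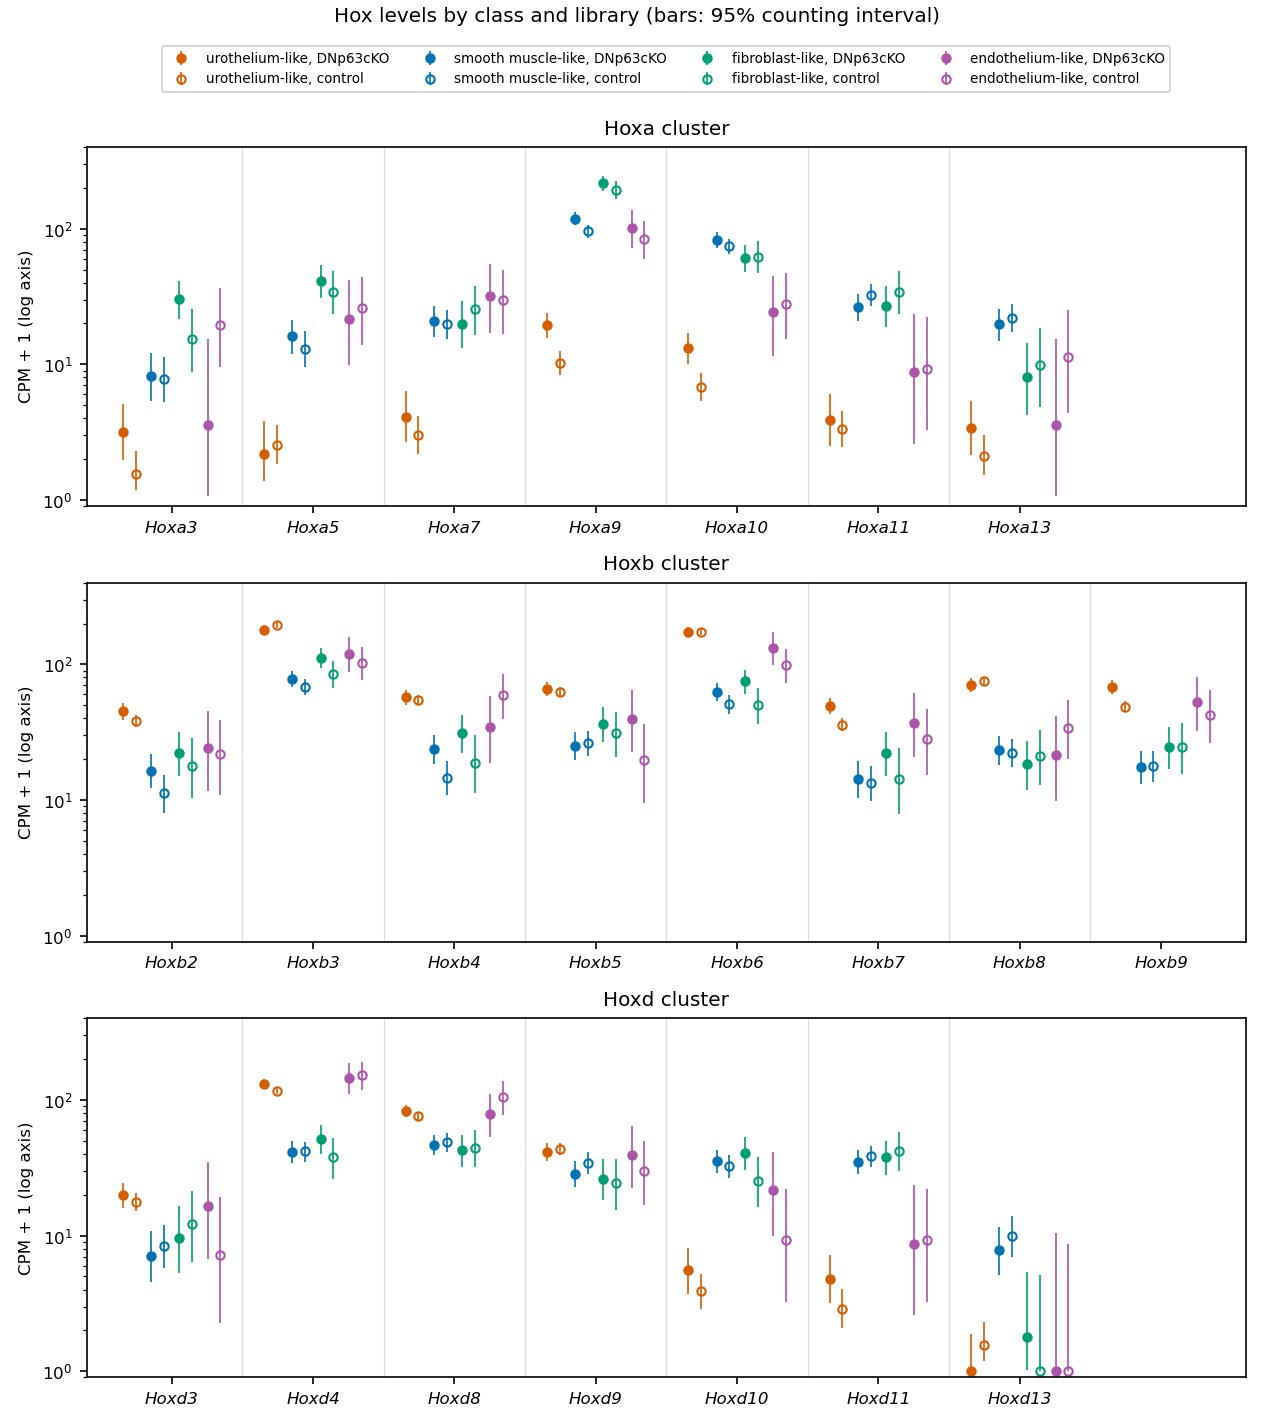
CPM + 1 on a log axis for the readable Hox genes of the Hoxa, Hoxb and Hoxd clusters in 4 classes; filled points are DNp63cKO, open points the control, and bars the 95% counting interval. Urothelium lies above smooth muscle over Hoxb2 to Hoxb9 and below it over Hoxa9 to Hoxa13, Hoxd10 and Hoxd11.

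Levels of different genes were set side by side per kb of exon. Whether intronic reads were counted is not given in the sources used here, so the order is a description on that scale. Free RNA, at 34.5% and 25.7% in smooth muscle, was not subtracted on this scale, and its part in the order was not tested. Per kb, Hoxb6 was first in urothelium, at 88.0 and 87.1 CPM per kb, ahead of Hoxd4 at 44.0 and 39.3 and Hoxb3 at 42.2 and 45.5. Hoxb6 was also first per kb in smooth muscle, at 31.4 and 25.3 CPM per kb, followed by Hoxa10 at 25.02 and 22.4. Hoxa9 (21.1 and 17.0), Hoxd10 (19.0 and 17.4) and Hoxd8 (16.6 and 17.5) followed there, in an order that changed between libraries. On this scale Hoxb3 stood above Hoxd8 in DNp63cKO muscle and below it in control muscle. In fibroblasts Hoxa9, at 38.5 and 34.5 CPM per kb, and Hoxb6, at 37.7 and 24.9, led, though Hoxb6 did not lie above the free-RNA level in the control. In endothelium Hoxb6 was at 66.8 and 49.5 CPM per kb and Hoxd4 at 48.9 and 51.3. Hoxd4 and Hoxb3 in urothelium changed places between libraries, as did Hoxb6 and Hoxd4 in endothelium.

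Class ratios were taken within each library as log2 of CPM + 5, over genes with 20 or more UMIs in the pair, and a gene was counted when it passed 1.5-fold the same way in both libraries. Of 21 Hox genes, 11 were higher in urothelium than in smooth muscle (Hoxb2 to Hoxb9, Hoxd3, Hoxd4 and Hoxd8), where 15.9% of all genes counted were higher. Another 9 were lower (Hoxa3, Hoxa5, Hoxa7, Hoxa9, Hoxa10, Hoxa11, Hoxa13, Hoxd10 and Hoxd11), where 17.0% of all genes were lower. Hoxa9 had log2 ratios of -2.39 in DNp63cKO and -2.81 in the control, and Hoxa10 of -2.34 and -2.85. Hoxb3 had log2 ratios of 1.17 and 1.46, and Hoxb2 of 1.27 and 1.47. The classes were clustered from the same nuclei, with Hoxa9, Hoxa10, Hoxc4, Hoxc6 and Hoxd12 among the genes used, so these ratios are descriptions. With all Hox regions left out of that set, groups 9 to 13 gave 14.8% and 11.9% of Hox UMIs in urothelium and 47.5% and 50.2% in smooth muscle. The remaining gene of the 21, Hoxd9, had 0.48 and 0.31. Of the 9 lower genes, Hoxa9 and Hoxa10 alone had 20 or more UMIs in each class and library. The other 7 reached the minimum through muscle in at least 1 library, as Hoxd3 did through urothelium. A gene that is counted through 1 class alone had to differ, so the direction of these genes and the counts that hold them are given as a description only.

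Smooth muscle and fibroblasts were closer in Hox levels, but the smooth muscle class also carried fibroblast markers. Of these 11 markers, 9 in DNp63cKO and 10 in the control were higher there than in the other nuclei. They summed to 8175 against 6288 CPM and to 10318 against 3827 CPM. Of the 12 smooth muscle markers, 0 and 1 were higher in fibroblasts. The part of this overlap in the ratios was not tested. Of 22 Hox genes, 2 were higher in smooth muscle, Hoxa13 (0.97 and 0.90) and Hoxd13 (19 UMIs against 1, and 29 against 0), beside 11.6% of all genes. Both were counted through muscle alone in at least 1 library, which fixes their direction. Lower in smooth muscle were 3, Hoxa3 (-1.49 and -0.72), Hoxa5 (-1.17 and -1.17) and Hoxa9 (-0.84 and -0.98), beside 10.3% of all genes. For these shares, 2 and 3 of 22 lie near the background.

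Endothelium shared higher levels of some Hoxb and Hoxd genes with urothelium, and a high Hoxa9 level with muscle. Against smooth muscle, 5 of 21 Hox genes were higher in endothelium (Hoxb6, Hoxb7, Hoxb9, Hoxd4 and Hoxd8), beside 9.63% of all genes. Another 5 were lower (Hoxa10, Hoxa11, Hoxa13, Hoxd10 and Hoxd11), beside 10.7%. All 5 of the lower genes had under 20 endothelial UMIs in at least 1 library and were counted through muscle. Hoxd4 had log2 ratios of 1.71 and 1.77, and Hoxa9 of -0.22 and -0.19. Against urothelium, 4 of 16 were higher (Hoxa7, Hoxa9, Hoxa10 and Hoxd10), beside 12.9%, and 3 were lower (Hoxb2, Hoxb5 and Hoxb8), beside 12.6%. The 3 lower genes were likewise counted through urothelium in at least 1 library, and of the 4 higher genes Hoxa9 alone had 20 or more UMIs in each class and library. Hoxa9 was 2.17 and 2.62 higher on the log2 scale in endothelium than in urothelium. Each endothelial level rests on 56 or fewer UMIs, apart from Hoxd4 with 73 in the control.

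**Figure D3:**
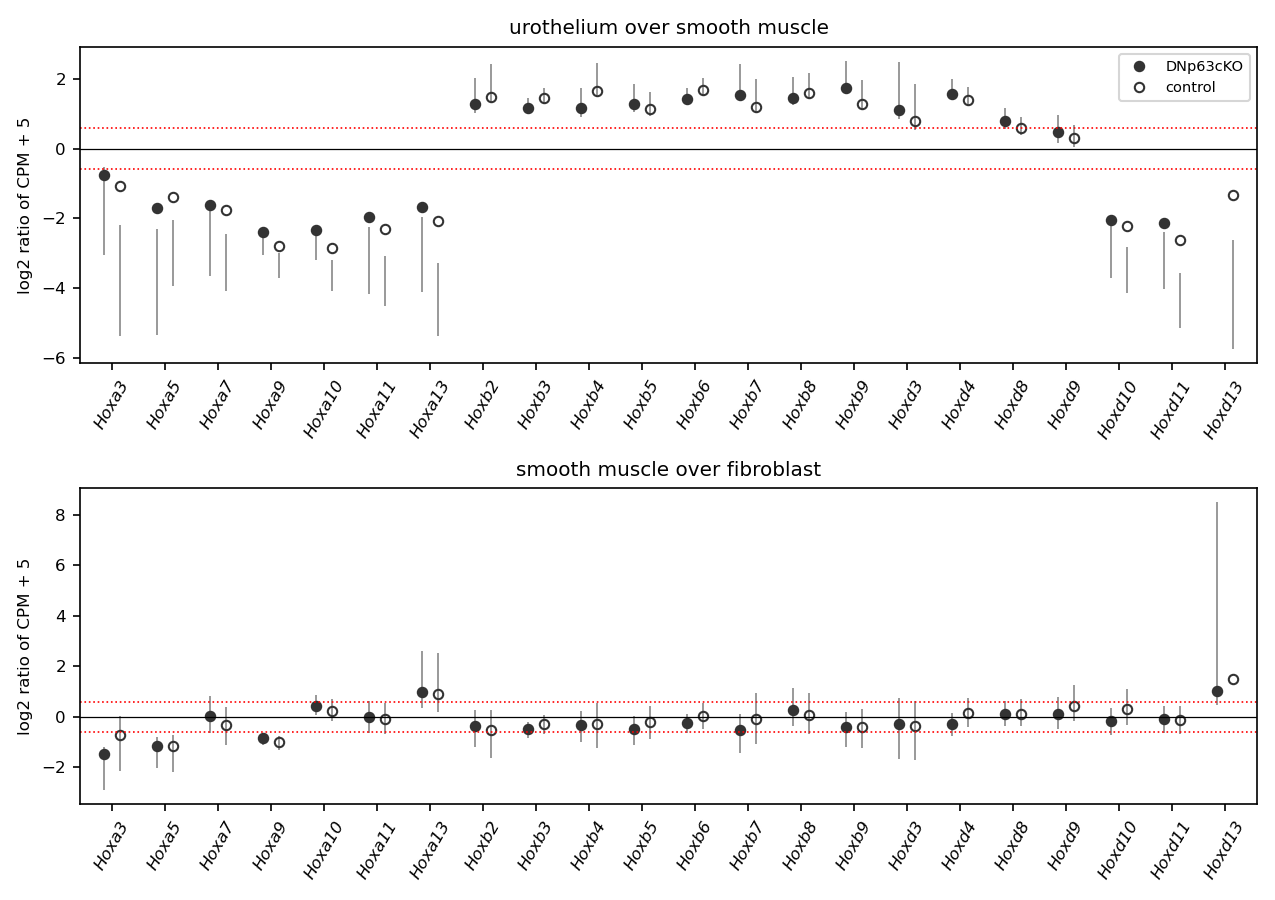
Log2 ratio of CPM + 5 for urothelium over smooth muscle and for smooth muscle over fibroblast, by Hox gene; filled points are DNp63cKO, open points the control, red dotted lines 1.5-fold, and grey lines the 95% counting interval of the ratio without the added 5, so that points of low genes can lie outside it. Hoxb genes stand above 0 and Hoxa genes below it in the upper panel, where 7 of the 9 lower genes were counted through muscle alone in at least 1 library, and most points lie near 0 in the lower panel.

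The share of nuclei with a Hox UMI was compared after thinning each nucleus to 700 UMIs, which left out 163 of 2198 DNp63cKO and 846 of 4912 control urothelial nuclei. Any Hox UMI was found in 50.9% and 50.4% of urothelial nuclei (77.2% and 72.8% before thinning), in 38.4% and 39.7% of smooth muscle nuclei (62.3% and 54.6%), in 47.6% and 44.5% of fibroblast nuclei, and in 49.5% and 46.5% of endothelial nuclei. Macrophage-like nuclei, of the blood lineage, served as a comparison at like depth (medians of 1114 and 1203 UMIs against 1473.5 and 1243.5 in urothelium); 28.3% (16.0 to 43.5%) and 25.9% (11.1 to 46.3%) of them had a Hox UMI. Hoxb UMIs were found in 38.9% and 39.1% of urothelial nuclei, 15.3% and 16.0% of smooth muscle nuclei and 17.4% and 7.41% of macrophage nuclei. The share with a UMI of Hoxa9 to Hoxa13 was 2.51% and 1.40% in urothelium, below the macrophage shares of 10.9% and 11.1%. Free RNA made up 42.6% and 19.5% of macrophage UMIs, against 20.7% and 18.9% in urothelium. Smooth muscle had 14.9% and 14.4%, and fibroblasts 19.9% and 19.6%; the macrophage intervals reach 23.6% and 29.2%, above both pairs of shares.

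DNp63cKO and control urothelium differed in their mix of subclusters, so the genotypes were first compared by numbered cluster. Cluster 2 (led by Spp1, Msln and Car2) held 990 DNp63cKO and 148 control nuclei, and cluster 3 (Bpifb1, Clu, Cdh20 and Htr4) 170 and 1168. Cluster 4 (Lypd3, Shh and Ivl) held 133 and 762, cluster 5 (the cycling genes Mki67 and Top2a) 335 and 608, cluster 6 (the basal keratins Krt5 and Krt14) 278 and 1042, and cluster 10 (Mir205hg) 292 and 1184. Among their 10 leading genes, clusters 2 and 4 held a collecting duct marker (Scnn1b, Aqp3) and no urothelial marker. Clusters 3, 5 and 10 held no urothelial marker there either, and cluster 6 held 1. Set against the other classes alone, the 10 leading genes of cluster 2 held 2 urothelial markers, Psca and Upk3a, and no collecting duct marker. Those of cluster 4 held Aqp3 and no urothelial marker. Summed Hox levels were higher in DNp63cKO in clusters 2 (1030 against 720.2 CPM, log2 0.51, 0.32 to 0.72) and 3 (996.8 against 747.8 CPM, 0.41, 0.25 to 0.57), and lower in cluster 6 (854.7 against 1058 CPM, -0.31, -0.47 to -0.15). In clusters 4, 5 and 10 the intervals of the ratio included 0, with log2 values of -0.04, -0.12 and 0.03.

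Hoxb9 was the Hox gene with the steadiest difference. Its level was 56.1 CPM in DNp63cKO against 9.31 CPM in the control in cluster 2, 43.8 against 35.9 in cluster 3, 96.4 against 51.2 in cluster 4, 87.7 against 66.01 in cluster 5, 81.5 against 60.1 in cluster 6 and 86.5 against 60.4 in cluster 10. It was higher in DNp63cKO in 6 of 6 clusters, by log2 0.25 to 2.09. Hoxb9 was picked for this from the 12 Hox genes counted in all 6 clusters, and the like count over all genes is not given here. The interval of the ratio excluded 0 in clusters 2 (1.01 to 4.89, from 3 control UMIs) and 4 (0.20 to 1.57) and included it in the other 4. Hoxa9 was higher in 5 of 5 clusters with enough UMIs, by log2 0.49 to 1.49. Its levels there, between 13.7 and 32.1 CPM in DNp63cKO and between 3.10 and 13.2 CPM in the control, stand in a class where free RNA gave about as much. Free RNA made up 16.6% to 29.0% of these clusters in DNp63cKO and 12.6% to 26.6% in the control.

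Hoxb3 and Hoxb6 differed one way in clusters 2 and 3 and the other way in clusters 5 and 6. Hoxb3 was at 178.8 against 114.9 CPM in cluster 2, and at 145.4 against 257.2 CPM in cluster 6. Hoxb6 was at 182.4 against 124.2 CPM in cluster 2, and at 105.7 against 161.7 CPM in cluster 6. Over all genes counted in 2 or more urothelial clusters, 5.42% had intervals on opposite sides of 0 in different clusters, and 3 of 14 Hox genes did. The 2 shares were not matched for UMI count, and genes with more UMIs have narrower intervals. In cluster 10 Hoxb3 was at its highest in both libraries, at 274.7 and 298.3 CPM.

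**Figure D4:**
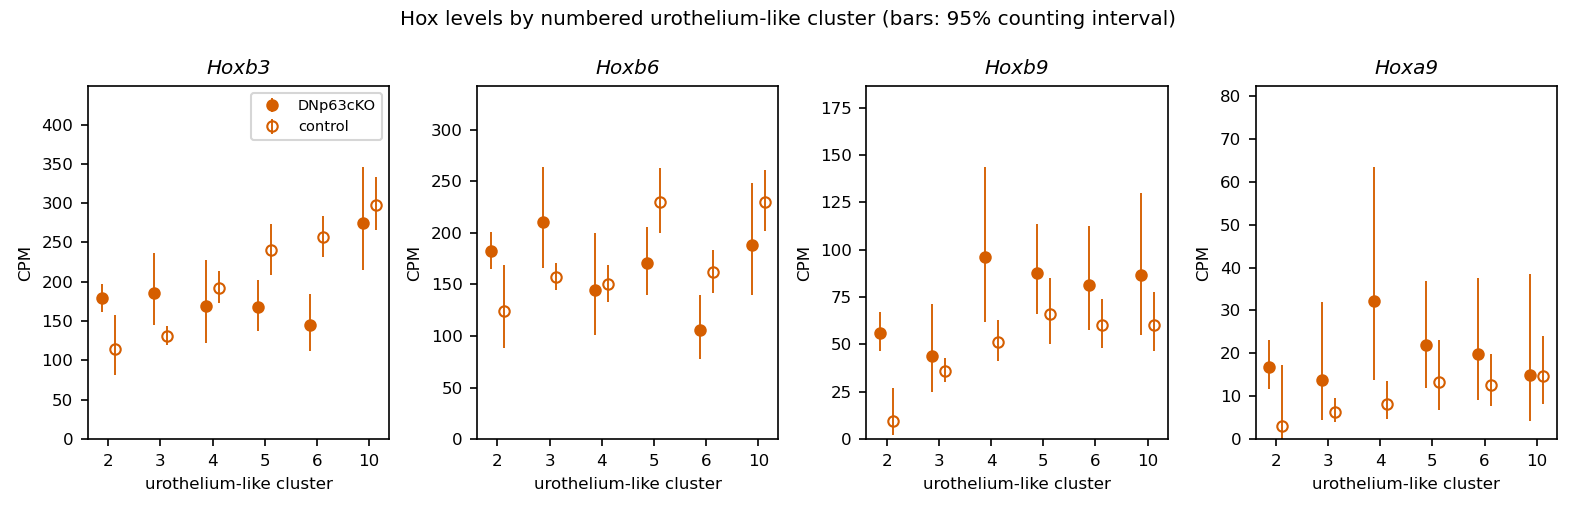
CPM of Hoxb3, Hoxb6, Hoxb9 and Hoxa9 in the 6 numbered urothelium-like clusters; filled points are DNp63cKO, open points the control, and bars the 95% counting interval. Hoxb9 is higher in DNp63cKO in each cluster, whereas Hoxb3 and Hoxb6 are higher in clusters 2 and 3 and lower in clusters 5 and 6.

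With all urothelial clusters together, 19 Hox genes were counted, with 20 or more UMIs over both libraries. Of these, 16 had a higher and 3 a lower CPM in DNp63cKO, with a median log2 ratio of 0.16 beside 0.01 over all 14823 genes. The like split over all genes is not given here, and the interval of the ratio excluded 0 for 5 of the 19. Among the higher genes, Hoxa7, Hoxa9, Hoxa11, Hoxa13, Hoxd10 and Hoxd11 did not lie above the free-RNA level in urothelium in either library. Past 1.5-fold were 2, Hoxa9 (18.4 against 9.28 CPM, log2 0.71, 0.52 to 1.45) and Hoxa10 (12.2 against 5.86 CPM, 0.66, 0.47 to 1.64), beside 6.34% of all genes. The free-RNA level of Hoxa9 was 17.3 and 8.62 CPM, and after its subtraction the log2 ratio was 0.13; that of Hoxa10 was 0.64. Smooth muscle markers summed to 1661 and 1208 CPM in the same urothelial nuclei and fibroblast markers to 1398 and 984.2 CPM, and none of these 23 markers was higher there than in the other nuclei; their part in the Hoxa ratios was not tested beyond that subtraction. Without clusters 2 and 4 Hoxa9 had 0.67 and Hoxa10 0.40. Hoxb9 (67.0 against 47.8 CPM, log2 0.45, 0.26 to 0.71) and Hoxb7 (48.5 against 34.9 CPM, 0.42, 0.21 to 0.73) followed, with 0.60 and 0.45 without clusters 2 and 4. Hoxd11 had 0.36 and Hoxd10 0.28, each with an interval that included 0. Summed over each gene cluster, Hoxa stood at 43.5 against 23.3 CPM (log2 0.78, 0.61 to 1.19), Hoxb at 705 against 675 CPM (0.06) and Hoxd at 280 against 256 CPM (0.13).

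In smooth muscle 23 Hox genes were counted, 12 higher and 11 lower in DNp63cKO, with a median of 0.05 and none past 1.5-fold, beside 5.97% of all genes. The 6 with the largest ratios were Hoxb4 (22.6 against 13.6 CPM, log2 0.57, 0.15 to 1.32), Hoxb2 (0.43), Hoxa9 (117.7 against 94.9 CPM, 0.30, 0.08 to 0.54), Hoxb6 (0.28), Hoxa11 (-0.26) and Hoxd13 (-0.24). Hoxb4 and Hoxa9 alone had an interval that excluded 0, and Hoxb4 had 0.15 without doublet removal. In control smooth muscle Hoxb4 and Hoxb2 did not lie above the free-RNA level, and its part in their ratios was not tested. By numbered cluster, the summed level was 585.4 against 591.1 CPM in cluster 1, 1172 against 947.0 CPM in cluster 7 and 796.2 against 812.0 CPM in cluster 12. In cluster 7 free RNA made up 72.8% in DNp63cKO and 39.5% in the control, and its median depth was 778 UMIs.

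In fibroblasts 22 were counted, 14 higher and 8 lower, with a median of 0.18. Past 1.5-fold were 4, beside 11.0% of all genes: Hoxa3 (29.1 against 14.5 CPM, log2 0.81, 0.07 to 2.05), Hoxa2 (0.67, from 15 and 5 UMIs), Hoxb4 (0.61) and Hoxd10 (0.59). Hoxb6 (74.0 against 49.0 CPM, 0.55, 0.06 to 1.15) and Hoxb7 (0.52) were within the fold. With the free-RNA level subtracted Hoxb6 had 1.51, and in control fibroblasts it did not lie above that level (40.1 CPM). Hoxb4 and Hoxb7 did not lie above their free-RNA levels in control fibroblasts either. In endothelium 14 were counted, 8 higher and 6 lower, and 2 passed 1.5-fold, Hoxb5 (0.88, from 15 and 9 UMIs) and Hoxb4 (-0.71, from 13 and 28), beside 20.6% of all genes. The next were Hoxb8 (-0.57, and -2.51 with free RNA subtracted), Hoxb6 (0.41), Hoxd8 (-0.40) and Hoxb7 (0.36), and no endothelial interval excluded 0. In pericytes Hoxa9 alone was counted, at 219.4 against 203.8 CPM (log2 0.10, -0.88 to 1.12), where 32.1% of all genes passed 1.5-fold. With so few genes past the fold, none of these counts is read apart from the background.

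**Figure D5:**
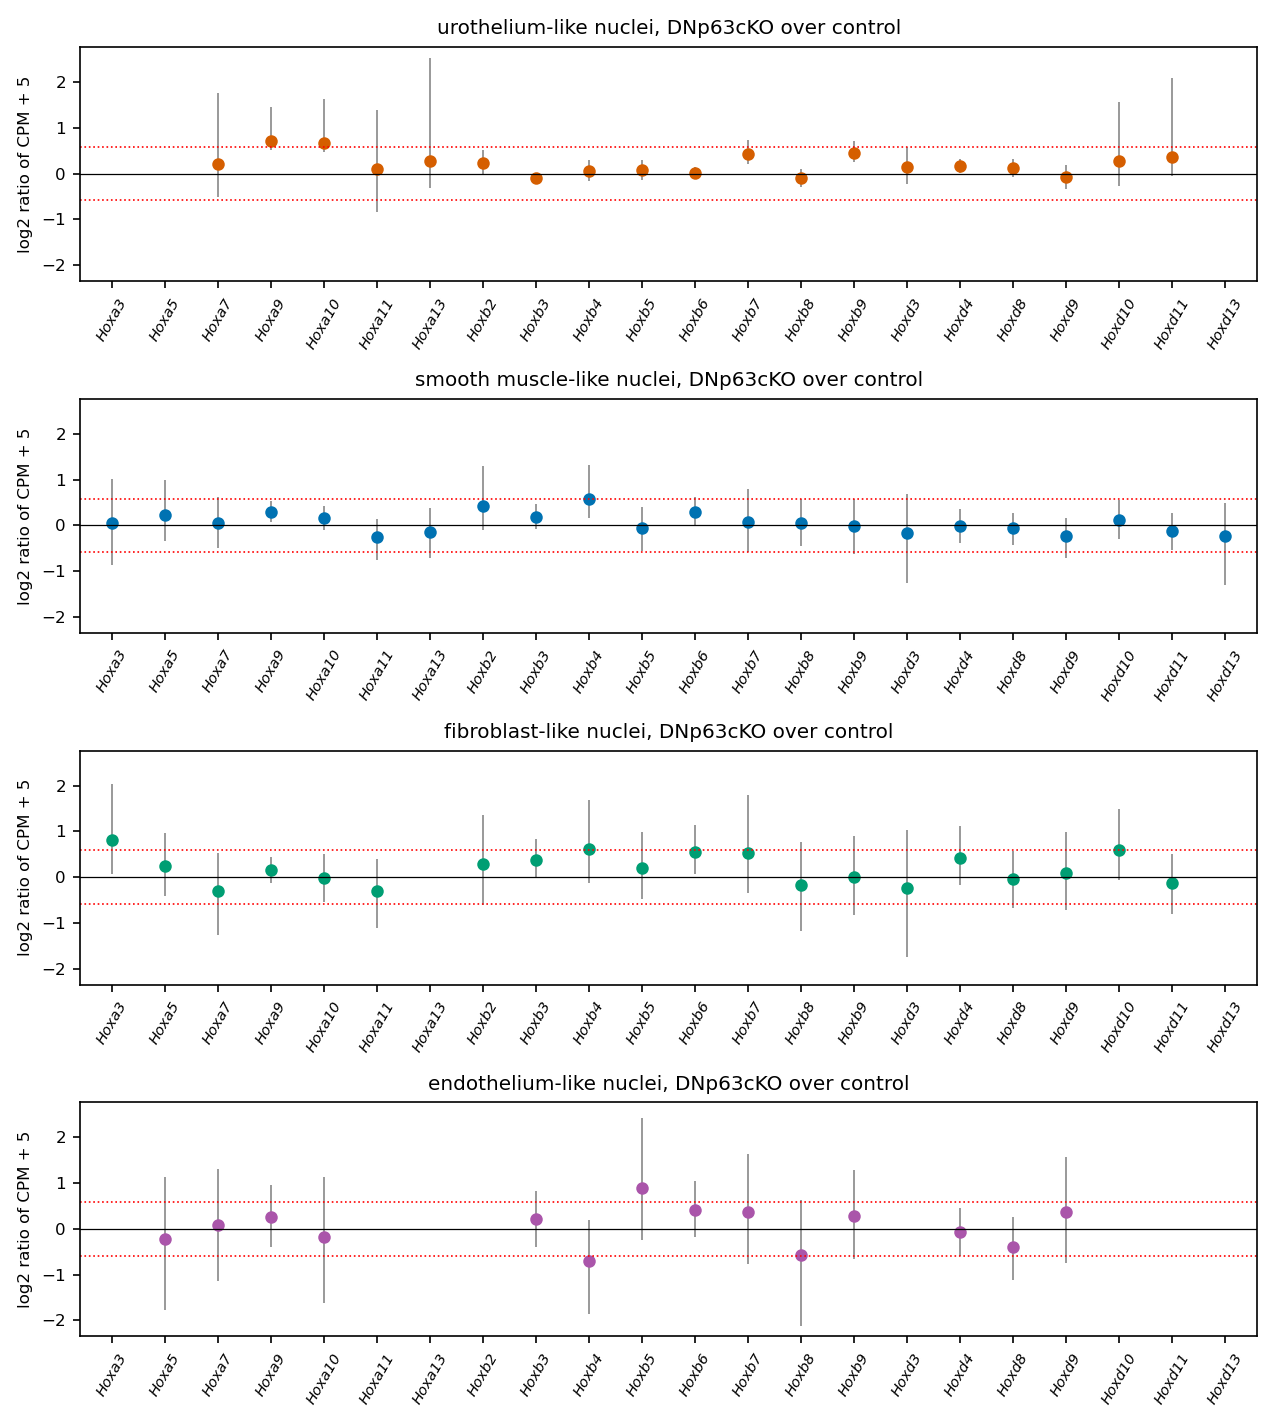
Log2 ratio of CPM + 5, DNp63cKO over control, for the Hox genes counted in urothelium, smooth muscle, fibroblast and endothelium-like nuclei; red dotted lines are 1.5-fold and grey lines the 95% counting interval of the ratio without the added 5, so that points of low genes can lie outside it. Only Hoxa9 and Hoxa10 pass the upper line in urothelium, and no gene passes a line in smooth muscle.

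TALE homeodomain proteins (Pbx, Meis and Pknox) bind DNA together with Hox proteins. All 9 of the list were counted in urothelium, 1 past 1.5-fold upward, with a median of -0.04, and all 9 in smooth muscle, 1 upward, with a median of 0.22. In fibroblasts 8 were counted with none past the fold, in endothelium 6 with 1 upward and 1 downward, and in pericytes 4 with none. Meis1 was at 94.2 and 104.5 CPM in urothelium, beside free-RNA levels of 93.97 and 57.1 CPM, and at 778.3 and 696.4 CPM in smooth muscle and 1026 and 975.0 CPM in fibroblasts. Meis2 was at 74.9 and 40.4 CPM in urothelium (log2 0.81), under free-RNA levels of 83.8 and 45.8 CPM, and at 631.9 and 524.2 CPM in smooth muscle. Pbx3 was at 48.8 and 50.4 CPM in urothelium and 150.3 and 153.0 CPM in smooth muscle. Pbx4 was the gene past the fold in smooth muscle, at 8.61 and 3.71 CPM (0.64).

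Polycomb proteins keep Hox genes silent and Trithorax proteins keep them active. Of 20 such genes, 20 were counted in urothelium with none past 1.5-fold and a median of -0.01. In smooth muscle 20 were counted with 1 upward, in fibroblasts 20 with 1 each way, in endothelium 16 with 3 upward and 1 downward, and in pericytes 4 with 1 upward. Kmt2a, a methyltransferase of the Trithorax group, was at 173.6 and 193.7 CPM in urothelium. Of the Polycomb genes there, Suz12 was at 130.8 and 124.1 CPM, Ezh2 at 122.7 and 103.6 CPM (log2 0.23) and Phc2 at 107.4 and 119.6 CPM. The largest urothelial ratios were those of Men1 (-0.30), Kdm6b (-0.29) and Cbx8 (-0.26). Past the fold were Cbx7 in smooth muscle (26.2 against 13.3 CPM, 0.77), and Bmi1 (37.0 against 18.9 CPM, 0.81) and Cbx2 (10.2 against 18.9 CPM, -0.65) in fibroblasts.

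Of 10 caudal and axial regulators, 3 were counted in urothelium and 3 in smooth muscle, none past 1.5-fold. Nr6a1, an orphan nuclear receptor of trunk development, was at 107.9 against 146.3 CPM in urothelium (log2 -0.42, -0.60 to -0.28). Lin28b, a repressor of let-7 microRNAs, was at 4.78 and 8.51 CPM there (-0.47), and Gdf11 at 2.15 and 2.21 CPM. In fibroblasts and in endothelium 1 was counted and in pericytes 0. The Cdx genes, which act upstream of Hox genes in the early embryo, were not among the 3.

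Of 46 annotated genes other than the members that lie within the 4 clusters, 20 were in the tables and 7 were counted in urothelium. Of the 7, 2 were past 1.5-fold upward, beside 6.34% of all genes past it either way, with a median of 0.46. The 2 were Hoxa11os, antisense to Hoxa11, at 8.13 against 1.77 CPM (log2 0.96) beside free-RNA levels of 5.46 and 2.57 CPM, and Gm28230 at 11.96 against 4.75 CPM (0.80). Gm28230 overlaps Hoxd3 and Hoxd4 on the same strand, so its level is uncertain. Hoxd3os1 was at 34.0 and 28.2 CPM, Hoxb3os at 31.6 and 29.6 CPM, Gm53 at 23.4 and 15.7 CPM (0.46) and Hoxb5os at 15.3 and 9.72 CPM (0.46). In smooth muscle 7 were counted, 2 past the fold upward, beside 5.97% of all genes past it either way. The 2 were Haglr (6.10 against 1.55 CPM, 0.76) and Gm53 (12.2 against 6.18 CPM, 0.62), and Hoxa11os was at 46.3 and 41.7 CPM. In fibroblasts 4 were counted with none past the fold, in endothelium 2 with 1 upward, and in pericytes 0. Of 14 genes that flank the clusters, 10 were counted in urothelium with none past the fold and a median of -0.10. Cbx5 was at 177.4 and 180.3 CPM, Atf2 at 143.5 and 176.1 CPM (-0.29), Hibadh at 96.4 and 114.1 CPM (-0.23), Mtx2 at 83.9 and 77.1 CPM and Skap1 at 20.8 and 30.8 CPM (-0.47). In smooth muscle 10 were counted with none past the fold, in fibroblasts 10 with 1 upward (Mtx2, 61.4 against 33.4 CPM, 0.79), in endothelium 8 with 2 upward and 1 downward, and in pericytes 3 with none.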

How the data were processed

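Single-nucleus libraries were analysed from raw UMI counts, which the authors deposited as matrices of genes by nuclei without normalization. Per the submitters' processing notes the tools were STARsolo, STAR 2.7.11a, R 4.0.5 and Seurat 4.0.5, with build mm10; whether intronic reads were counted, and on which strand, is not given in the sources used here. Nuclei were kept from 300 genes upward and with no more than 5% of UMIs from mitochondria (5491 DNp63cKO and 8889 control). The automatic Scrublet threshold marked 0% of nuclei, so the top 5% by doublet score were removed instead (319 and 515). With scanpy 1.11.5 (Python 3.11.15, igraph 0.11.9), both libraries were clustered together without integration from 2000 variable genes, 30 principal components and 15 neighbours, at Leiden resolution 1.0; 5 Hox genes were among the variable genes. A cluster was named when at least 3 markers and 75% of a list reached 50 CPM with a marker score above 0.1, a rule chosen after seeing the data. A cluster led by liver genes stayed unnamed.

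CPM is a gene's summed UMIs over the class total. Intervals are exact Poisson (levels), Clopper-Pearson (shares) and conditional binomial (ratios), from scipy 1.17.1. Ratios are log2 of CPM + 5, with an interval computed without the added 5, over genes with 20 or more UMIs in the pair; the fold counted was 1.5. The ratio code was tested on simulated data. Gene coordinates and exon lengths come from GENCODE on mm10. Genes named are those readable in both libraries in at least 1 class, the 6 with the largest ratios per class, and from each list 4 by level and 3 by ratio, given for urothelium and, where past the fold, muscle and fibroblasts. Values of some list members and the name of 1 low gene are not reported here. The Hox genes and the lists were chosen with earlier results of these data known. Alternatives covered read minimum, depth, doublets, resolution, variable genes, averaging, free RNA, the added CPM, scaling and left-out clusters.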

Additional observations from a re-analysis of the deposited data

Results flagged for a closer look

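Within urothelium-like nuclei, 3 Hoxb genes differed between the genotypes in opposite directions in different numbered clusters, with intervals on opposite sides of 0. The log2 ratio of DNp63cKO over control for Hoxb3 was 0.62 in cluster 2 and 0.49 in cluster 3, and -0.51 in cluster 5 and -0.80 in cluster 6. For Hoxb5 it was 0.83 in cluster 2, from 155 and 12 UMIs, and -0.75 in cluster 6, from 17 and 99. For Hoxb6 it was 0.54 in cluster 2 and 0.41 in cluster 3, and -0.42 in cluster 5 and -0.59 in cluster 6. Of 11455 genes counted in 2 or more urothelial clusters, 621 (5.42%) had intervals on opposite sides of 0 in this way, beside 3 of the 14 Hox genes counted so. The shares were not matched for UMI count, so they are not read as an excess. Hoxb3 and Hoxb6 had the most UMIs of the Hox genes in urothelium, and more UMIs give narrower intervals. With 1 library per genotype, the difference between clusters was not tested. Clusters 2 and 3 held most unequal numbers of nuclei from the libraries (990 and 148, and 170 and 1168). Free RNA made up 19.9% of DNp63cKO and 18.2% of control UMIs in cluster 2, 16.6% and 12.6% in cluster 3, 21.8% and 23.8% in cluster 5, and 21.5% and 19.3% in cluster 6; its part in these ratios was not tested.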

How the results depend on the processing

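The urothelial share of Hox UMIs from paralogue groups 9 to 13 stayed below that of smooth muscle under every alternative that gave both values. Alternatives left 46 median log2 ratios within the spread and moved 1, and kept 45 and moved 19 shares. They kept 55 and moved 9 counts of readable genes, and kept 52 and moved 12 summed levels. For a median, the spread ran from the median lower end to the median upper end of the single-gene intervals (-0.14 to 0.58 in urothelium). It is not an interval of the median and is wide, so the 46 are a weak check. As a mean over nuclei, the summed level was 1122 and 1110 CPM in the DNp63cKO and control urothelium, 848.6 and 770.5 CPM in smooth muscle. The share of groups 9 to 13 by the same mean was 10.9% in control urothelium, 51.2% in DNp63cKO smooth muscle, and 49.3% and 53.8% in fibroblasts. With free RNA subtracted, the summed level was 663.2 and 629.2 CPM in smooth muscle and 1418 CPM in DNp63cKO pericytes. The share was then 11.6% and 9.94% in urothelium, 62.8% and 64.5% in smooth muscle, 53.5% and 60.6% in fibroblasts and 58.4% in DNp63cKO pericytes, and the pericyte median, which is Hoxa9 alone, was 1.35. These pericyte values rest on an uncertain free-RNA share. Over nuclei with 1000 or more UMIs, the control level was 888.6 CPM in urothelium and 662.6 CPM in smooth muscle, the fibroblast shares were 41.1% and 39.3%, and 0 genes were readable in control pericytes. Without doublet removal the control smooth muscle level was 731.4 CPM, its share 44.6%, the control fibroblast share 43.5%, and 3 genes were readable in control pericytes; with the Hox regions left out of the variable genes, 2 were. With a minimum of 5 UMIs, 17 genes were readable in DNp63cKO endothelium, and 6 and 5 in pericytes; with 20, 6 and 7 in endothelium and 0 in control pericytes. Without cluster 2, the most unequal urothelial cluster, the DNp63cKO urothelial share was 16.8%. Of the alternatives chosen after seeing the data, leaving out clusters 2 and 4 gave 16.4%, and leaving out smooth muscle cluster 1 gave 933.4 and 876.3 CPM and shares of 42.7% and 44.3%. Among single genes, the urothelial Hoxd4 ratio turned from 0.16 to -0.016 as a mean over nuclei, the Hoxa9 ratio fell to 0.13 with free RNA subtracted, and the Hoxa10 ratio was 0.43 without cluster 2. Hoxd8 and Hoxd9 were 0.40 and 0.45 without clusters 2 and 4, where Hoxb6 was -0.11. With free RNA subtracted, smooth muscle Hoxb9 was -0.90 and Hoxd4 -0.48. The cause of these moves was not tested beyond what each alternative changes. Clustering at resolution 0.1 merged muscle and fibroblasts, so it gave no separate value for them or for pericytes; its single urothelial cluster, without a majority of foreign markers, gave 0.60 for Hoxa9, 0.68 for Hoxa10 and 0.44 for Hoxb9. No paired analysis was possible because each genotype has 1 library and no result comes from a test. Of the 5 classes compared, depth limits pericytes most, where a gene needs 28.6 or 38.2 CPM to exceed the limit of a zero.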
